A study of Mus musculus with 16 samples.

Results

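A set of 47 genes for copying DNA and supplying its building blocks was followed in mouse dermal fibroblasts, the cells that make the collagen matrix of the skin. The genes were chosen by name, by their known roles, and 46 of them were represented on the array among 17097 genes with 1 symbol per probe set. All 46 entered the tests, which covered 14819 genes. Chaf1a, a subunit of the histone chaperone CAF-1, was not listed with any probe set and was not analysed here. Each gene was read from its probe set with the highest mean, and 19 of the 46 have only 1 probe set.

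The fibroblasts came from female C57Bl/6 mice, 4 of them young (2 months) and 4 old (18 months), and the labels name no genetic change or drug in any group. The cells of every mouse were profiled at isolation (called in vivo in the labels) and again after growth in culture, 5000 cells a sample, which gives 4 arrays for each age in each of the 2 states. Mice were collected over several days, with young and old mice on each day, and no label ties a sample to its mouse or day. Array numbers below follow the order of deposit within a group, and no label says what that order stands for. How long and in what medium the cells were grown, and at which passage, is not stated in the sources used here.

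The comparisons ask how these genes differ between freshly isolated and cultured fibroblasts, whether their levels differ between old and young mice, and whether the age difference is the same in both states. Levels are deposited values on a log2 scale, so a difference of 1 is 2-fold. They are relative to the other genes on the same array, and whether in vivo and cultured arrays were normalised together is not stated. A level of one member was not set against that of another. Levels of cell type markers were summed, and the brightest of some lists named, as a rough guide only. The 16 arrays had medians of 4.74 to 4.92. Over all probe sets, in vivo arrays correlated with each other at 0.977 to 0.992, cultured arrays at 0.987 to 0.996, and an in vivo with a cultured array at 0.879 to 0.913. Of the values of the 12 bacterial poly-A control probe sets, 95% lay under 4.75, which serves as a guide to background. A member with a group mean under that level is said to lie in the control range. In bulk RNA, fewer cells in S phase and less of a transcript per cell cannot be told apart.

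A cell prepares to copy its genome in G1. The origin recognition complex, CDC6 and CDT1 load the ring-shaped MCM helicase on DNA, and the kinase CDC7 and cyclin E with CDK2 then help to turn the ring on together with CDC45 and the GINS complex. Primase lays RNA primers, and DNA polymerases then copy the strands. The sliding clamp PCNA holds the polymerases of the leading and lagging strands on the DNA. Ribonucleotide reductase, thymidylate synthase and thymidine kinase supply deoxynucleotides. Many of these genes are known targets of the E2F transcription factors, which the retinoblastoma family holds back in resting cells. Most fibroblasts of adult skin rest outside the cell cycle, whereas culture with serum is a standard way to make fibroblasts divide.

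The stretches before the gene starts were searched for letters that E2F factors are known to prefer. Stretches are shown for the 3 members with the largest culture change and the 2 with the smallest. Each is the 250 bases before the RefSeq start, 5′ to 3′ on the strand of the gene, in assembly GRCm38.p6. Rrm2 lies at chr12:24708004-24708253 on the plus strand, Mcm2 at chr6:88898781-88899030 on the minus strand and Mcm5 at chr8:75109259-75109508 on the plus strand. Pcna lies at chr2:132253181-132253430 on the minus strand and Orc1 at chr4:108579204-108579453 on the plus strand. Capitals mark the E2F-type letters TTGGCGC or TTCGCGC or TTCCCGC or TTGCCGC and the box CCAAT, on either strand, and matches that overlap run together.
Rrm2: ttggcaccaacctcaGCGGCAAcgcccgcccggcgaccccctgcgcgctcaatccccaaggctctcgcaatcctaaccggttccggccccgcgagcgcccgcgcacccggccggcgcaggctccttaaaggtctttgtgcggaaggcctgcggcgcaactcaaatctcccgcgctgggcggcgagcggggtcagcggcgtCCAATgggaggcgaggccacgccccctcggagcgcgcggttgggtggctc
Mcm2: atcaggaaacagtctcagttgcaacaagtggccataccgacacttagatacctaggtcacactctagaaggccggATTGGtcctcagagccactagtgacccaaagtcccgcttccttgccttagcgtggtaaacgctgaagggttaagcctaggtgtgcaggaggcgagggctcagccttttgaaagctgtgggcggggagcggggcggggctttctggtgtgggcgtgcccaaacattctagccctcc
Mcm5: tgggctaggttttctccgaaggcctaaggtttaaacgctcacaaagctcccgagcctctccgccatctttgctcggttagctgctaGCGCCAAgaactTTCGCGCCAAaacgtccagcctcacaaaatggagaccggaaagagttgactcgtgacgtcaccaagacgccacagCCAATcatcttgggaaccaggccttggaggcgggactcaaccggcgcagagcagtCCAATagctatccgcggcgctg
Pcna: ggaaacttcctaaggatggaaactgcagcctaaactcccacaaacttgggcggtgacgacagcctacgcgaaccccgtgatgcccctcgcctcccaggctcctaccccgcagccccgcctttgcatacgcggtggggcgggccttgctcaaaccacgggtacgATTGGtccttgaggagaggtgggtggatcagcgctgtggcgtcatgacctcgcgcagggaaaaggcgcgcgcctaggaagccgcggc
Orc1: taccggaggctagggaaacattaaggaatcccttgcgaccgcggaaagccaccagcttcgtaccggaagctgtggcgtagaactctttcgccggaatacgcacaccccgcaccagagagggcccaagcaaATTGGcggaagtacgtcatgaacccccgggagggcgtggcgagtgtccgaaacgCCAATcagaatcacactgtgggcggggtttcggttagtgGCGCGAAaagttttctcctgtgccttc
The Mcm5 stretch holds 3 E2F-type matches and 2 CCAAT boxes, and the Rrm2 stretch holds 1 of each. The Mcm2 and Pcna stretches hold a CCAAT box and no E2F-type match. Orc1 holds 1 E2F-type match and 2 CCAAT boxes. On the probe sets used, the culture change was large for Mcm2 and near 0 for Pcna and Orc1. Whether these letters bear on the culture change was not tested.

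Matches were counted over a window of 300 bases, from 250 before to 50 after the start. Of the 46 members, 38 had an entry in the set of RefSeq promoters used here. The other 8 had none in that set (Rfc2, Gins1, Gins2, Gins4, Ccne2, Prim2, Pole and Mcm4). An E2F-type match of 7 letters was found in 26 of the 38 members (68.4%), in 10.9% of all 27025 genes with an entry and in 17.0% of the 11833 tested genes with one. The longer forms TTTGGCGC, TTTCGCGC, TTTCCCGC and TTTGCCGC, which contain the shorter ones, were found in 16 of the 38 members (42.1%), against 2.6% of all genes and 4.0% of tested genes. CCAAT was found in 23 members (60.5%), against 41.1% and 42.1%. The median culture change (log2) was 2.04 for the 16 members with a longer match and 1.56 for the 22 without. It was 1.78 for the 26 members with a 7-letter match and 1.27 for the 12 without. For members with CCAAT it was 1.66, and for the 15 without 1.61. Members with a longer match ranged from -0.13 (Orc1) to 3.95 (Mcm5), and those without from 0.10 (Pcna) to 5.51 (Rrm2). A match is a run of letters and not a measured binding site.

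The genes rose together in culture. Averaged over both ages, 42 of the 46 members were higher in cultured than in vivo fibroblasts (limma, Benjamini-Hochberg adjusted p under 0.05), 0 were lower and 4 did not pass the test. Of all tested genes 34.8% were higher and 44.7% lower. The median change of the members was 1.60 on the log2 scale against -0.11 over all tested genes. At least 2-fold higher were 35 of the 46, against 13.3% of tested genes, and at least 4-fold higher were 16, against 3.35%. In 39 members all 8 cultured arrays lay above all 8 in vivo arrays, which held for 23.9% of tested genes. The 42 and the 39 include Ccne2 and Fen1, which entered the tests only through their cultured arrays. The 7 members whose arrays overlapped between conditions were Mcm7, Gins3, Orc1, Pola2, Pold1, Pcna and Slbp. The plot of member values by array shows these gaps gene by gene.

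**Figure D1:**
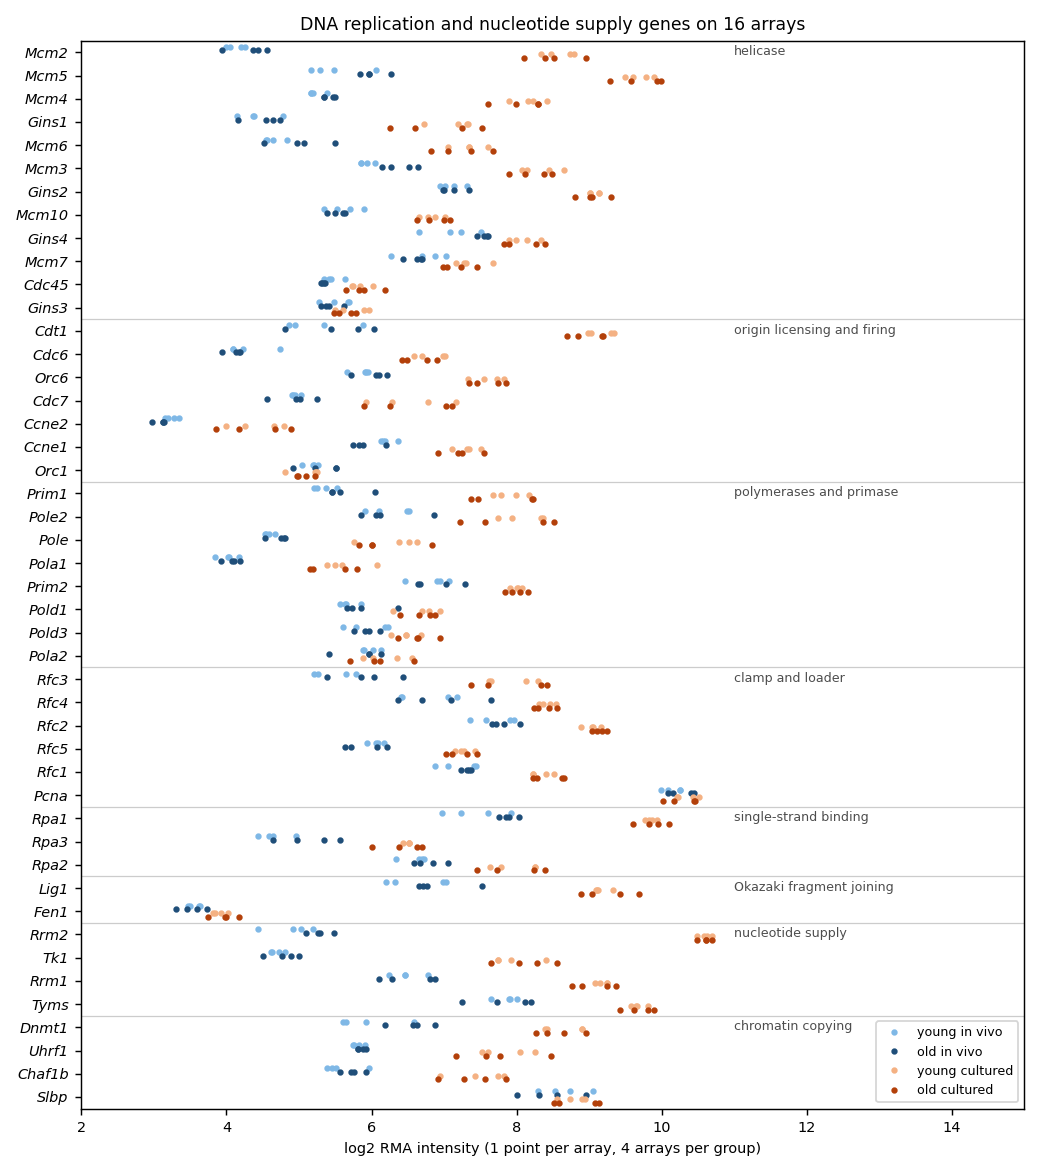
Deposited log2 value of each of the 46 genes on each of the 16 arrays (1 point per array, 4 arrays per group), grouped by role. Cultured points (orange and brown) lie to the right of the in vivo points (blues) with no overlap in 39 genes, and the points of Pcna and Orc1 overlap.

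Deoxynucleotide supply held the largest change. All 4 of its members were higher, with a median change of 2.96. Rrm2 encodes the small subunit of ribonucleotide reductase, the enzyme that turns ribonucleotides into deoxyribonucleotides and whose level is known to follow S phase. Rrm2 read 5.03, 4.92, 4.43 and 5.19 on the young in vivo arrays, 5.26, 5.10, 5.48 and 5.29 on the old in vivo arrays, 10.70, 10.48, 10.58 and 10.63 on the young cultured arrays and 10.61, 10.61, 10.48 and 10.70 on the old cultured arrays. The 8 cultured values lay within 0.22 of each other and 5.0 above the highest in vivo value, and the change was 5.51 ± 0.09 (SE, n = 8 against 8 arrays), or 45.6-fold, with adjusted p = 3.23e-17 in limma. The second Rrm2 probe set changed by 4.90. Rrm1, the large subunit of the same enzyme, differed less. Rrm1 read 6.46, 6.24, 6.46 and 6.78 on the young in vivo arrays, 6.28, 6.10, 6.87 and 6.81 on the old in vivo arrays, 9.24, 9.24, 9.08 and 9.15 on the young cultured arrays and 9.37, 9.25, 8.77 and 8.90 on the old cultured arrays. Its groups did not overlap and the change was 2.63 ± 0.12 (6.17-fold). Tk1, the cytosolic thymidine kinase of the salvage route, is known to be made in S phase. Tk1 read 4.62, 4.63, 4.81 and 4.73 on the young in vivo arrays, 4.89, 4.51, 5.0 and 4.76 on the old in vivo arrays, 7.75, 8.40, 7.75 and 7.92 on the young cultured arrays and 8.56, 8.28, 7.65 and 8.03 on the old cultured arrays. In vivo it lay in the control range in young and just above it in old mice, and it rose by 3.30 ± 0.12 (9.84-fold) with no overlap. Tyms, which makes thymidylate from deoxyuridylate, rose by 1.84 ± 0.12.

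Of the helicase genes 12 of 12 were higher, with a median of 2.03 and a range of 0.21 to 4.31. The MCM2-7 proteins form the ring that unwinds DNA. Mcm2 read 4.00, 4.20, 4.05 and 4.26 on the young in vivo arrays, 4.44, 3.94, 4.56 and 4.37 on the old in vivo arrays, 8.79, 8.73, 8.33 and 8.48 on the young cultured arrays and 8.95, 8.51, 8.10 and 8.39 on the old cultured arrays. In vivo Mcm2 lay in the control range in both ages, so that its change of 4.31 ± 0.12 (19.8-fold, adjusted p = 5.36e-15 in limma) starts from background signal. Mcm5 read 5.16, 5.48, 5.29 and 6.06 on the young in vivo arrays, 5.84, 5.96, 5.96 and 6.27 on the old in vivo arrays, 9.79, 9.90, 9.50 and 9.60 on the young cultured arrays and 9.99, 9.94, 9.29 and 9.58 on the old cultured arrays. The lowest cultured Mcm5 value was 9.29 and the highest in vivo value 6.27, and the change was 3.95 ± 0.13 (15.4-fold). Mcm4 read 5.19, 5.16, 5.17 and 5.39 on the young in vivo arrays, 5.35, 5.47, 5.50 and 5.34 on the old in vivo arrays, 8.16, 8.42, 7.89 and 8.22 on the young cultured arrays and 8.30, 8.30, 7.61 and 7.99 on the old cultured arrays. Mcm4 rose by 2.79 ± 0.10 (6.92-fold), and its old cultured array 3 was the lowest of the cultured arrays. Gins1 belongs to the GINS complex, which joins the ring with CDC45 to form the active helicase. Gins1 read 4.37, 4.38, 4.78 and 4.15 on the young in vivo arrays, 4.54, 4.16, 4.74 and 4.64 on the old in vivo arrays, 7.33, 7.31, 6.73 and 7.19 on the young cultured arrays and 7.52, 7.25, 6.26 and 6.60 on the old cultured arrays. It too was in the control range in vivo and rose by 2.55 ± 0.16 (5.87-fold), with cultured arrays that spanned 1.26.

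The other helicase genes rose less. Mcm6, in the control range in young mice in vivo, rose by 2.46 ± 0.14 and Mcm3 by 2.12 ± 0.11. Gins2 rose by 1.95 ± 0.08 and Mcm10, which helps to activate the ring, by 1.28 ± 0.09. Gins4, Mcm7 and Cdc45 changed by 0.76 ± 0.11, 0.60 ± 0.11 and 0.47 ± 0.08. Arrays overlapped between conditions for Mcm7 and for Gins3, whose change was the smallest of the group. Gins3 read 5.27, 5.48, 5.69 and 5.68 on the young in vivo arrays, 5.31, 5.37, 5.42 and 5.62 on the old in vivo arrays, 5.96, 5.90, 5.49 and 5.61 on the young cultured arrays and 5.79, 5.71, 5.55 and 5.48 on the old cultured arrays. The change of 0.21 ± 0.09 had adjusted p = 0.0393 in limma, and this call was lost in 9 of the 16 fits that left out 1 array.

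Of the 7 licensing and firing genes, 6 were higher, with a median of 1.61. CDT1 loads the helicase at origins in G1 and is held in check by geminin in S phase. Cdt1 read 5.88, 5.35, 4.86 and 4.94 on the young in vivo arrays, 5.44, 4.81, 6.04 and 5.81 on the old in vivo arrays, 9.34, 9.30, 9.02 and 8.98 on the young cultured arrays and 9.18, 9.19, 8.70 and 8.84 on the old cultured arrays. Cdt1 was spread over 1.23 in vivo and over 0.64 in culture, and it rose by 3.68 ± 0.17 (12.8-fold). Cdc6, its partner in loading, rose by 2.54 ± 0.11 from the control range. Orc6, a subunit of the origin recognition complex, rose by 1.66 ± 0.10, and the firing kinase Cdc7 by 1.61 ± 0.19. The E cyclins Ccne1 and Ccne2 rose by 1.21 ± 0.09 and 1.25 ± 0.14, but all 4 group means of Ccne2 lay in the control range. Orc1, the large subunit of the recognition complex, was the only member of the 46 with a change below 0. Orc1 read 5.19, 5.20, 5.04 and 5.26 on the young in vivo arrays, 5.51, 5.51, 5.22 and 4.92 on the old in vivo arrays, 5.25, 5.22, 4.81 and 5.23 on the young cultured arrays and 5.22, 4.99, 5.10 and 4.97 on the old cultured arrays. The groups overlapped, and the change of -0.13 ± 0.09 had adjusted p = 0.191 in limma, with a 95% interval of -0.33 to 0.06. Without old in vivo array 4 it was -0.19 with adjusted p = 0.0370, and then 1 member rather than 0 counted as lower.

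Among polymerase and primase genes 7 of 8 were higher, with a median of 1.31. The primase subunits Prim1 and Prim2, which lay the RNA primers, rose by 2.38 ± 0.14 and 1.13 ± 0.10. For polymerase epsilon, which copies the leading strand, Pole rose by 1.59 ± 0.14 from the control range and Pole2 by 1.77 ± 0.19. For polymerase delta, the lagging-strand enzyme, Pold1 rose by 0.89 ± 0.11 and Pold3 by 0.61 ± 0.10. Pola1, the catalytic subunit of polymerase alpha, rose by 1.50 ± 0.11, also from the control range, whereas its partner Pola2 did not pass the test. Pola2 read 6.13, 5.90, 5.88 and 6.02 on the young in vivo arrays, 5.42, 5.96, 5.97 and 6.13 on the old in vivo arrays, 6.35, 6.56, 5.88 and 6.02 on the young cultured arrays and 6.59, 6.12, 5.70 and 6.04 on the old cultured arrays. The Pola2 groups overlapped, with a difference of 0.23 ± 0.13, adjusted p = 0.115 in limma and a 95% interval of -0.05 to 0.51. Without old cultured array 3 its adjusted p was 0.0400.

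The clamp loader rose and the clamp did not pass the test. All 5 genes of replication factor C, the ring opener that puts PCNA on DNA, were higher: Rfc3 by 2.23 ± 0.18, Rfc4 by 1.55 ± 0.16, Rfc2 by 1.33 ± 0.09, Rfc5 by 1.26 ± 0.09 and Rfc1 by 1.14 ± 0.09. PCNA is widely used as a proliferation marker. Pcna read 10.25, 10.25, 9.99 and 10.09 on the young in vivo arrays, 10.44, 10.09, 10.41 and 10.15 on the old in vivo arrays, 10.51, 10.43, 10.23 and 10.21 on the young cultured arrays and 10.46, 10.45, 10.02 and 10.17 on the old cultured arrays. All 16 values lay between 9.99 and 10.51 and the groups overlapped. The difference was 0.10 ± 0.08, with adjusted p = 0.273 in limma and a 95% interval of -0.08 to 0.28. Pcna has 1 probe set among those with 1 symbol, so no second reading of it was available.

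Single-strand binding and Okazaki fragment genes were all higher, Fen1 only from a dim signal. The genes of replication protein A, which coats single strands, were higher in 3 of 3 cases, with Rpa1 at 2.20 ± 0.11, Rpa3 at 1.57 ± 0.13 and Rpa2 at 1.27 ± 0.14. Lig1, the ligase that seals Okazaki fragments, rose by 2.44 ± 0.16. Fen1, the nuclease that trims their flaps, passed the test at a low level. Fen1 read 3.50, 3.64, 3.47 and 3.62 on the young in vivo arrays, 3.45, 3.30, 3.73 and 3.59 on the old in vivo arrays, 3.84, 4.02, 3.82 and 3.92 on the young cultured arrays and 4.17, 3.99, 3.74 and 3.98 on the old cultured arrays. All 4 group means of Fen1 lay in the control range, and its change was 0.40 ± 0.07.

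Genes for copying chromatin were higher in 3 of 4 cases. Dnmt1, which restores DNA methylation on the new strand, rose by 2.36 ± 0.15, and Uhrf1, which recruits it, by 1.96 ± 0.15. Chaf1b, a subunit of the chaperone that sets histones on new DNA, rose by 1.79 ± 0.14. Slbp encodes the protein that binds the stem-loop of replication-dependent histone mRNAs. Slbp read 8.74, 9.05, 8.29 and 8.53 on the young in vivo arrays, 8.55, 8.31, 8.95 and 8.01 on the old in vivo arrays, 8.94, 8.90, 8.56 and 8.74 on the young cultured arrays and 9.13, 9.08, 8.52 and 8.59 on the old cultured arrays. Its groups overlapped, and the difference was 0.25 ± 0.14 with adjusted p = 0.106 in limma. Leaving out young in vivo array 2 or old in vivo array 3 gave an adjusted p of 0.0451 or 0.0280.

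The culture comparison was also made within each age. In young mice 41 of 46 members were higher and 0 lower, with a median of 1.74, against 32.6% and 38.6% of tested genes. In old mice 41 were higher and 0 lower, with a median of 1.51, against 30.2% and 32.5%. Gins3, Orc1, Pola2, Pcna and Slbp did not pass the test in either age. Rrm2 changed by 5.71 ± 0.13 in young and 5.32 ± 0.13 in old mice, Mcm2 by 4.46 ± 0.17 and 4.16 ± 0.17, and Mcm5 by 4.20 ± 0.18 and 3.69 ± 0.18. The test of these age differences follows below with the interaction. Without old in vivo array 4, Orc1 was lower in the old mice (-0.34, adjusted p = 0.0201 in limma).

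**Figure D2:**
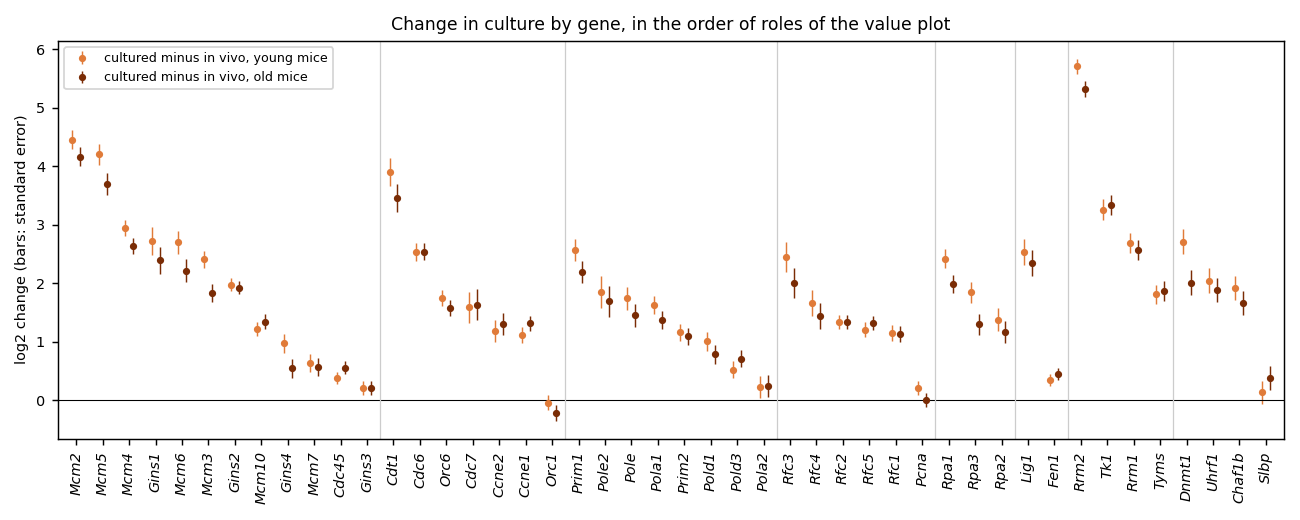
Culture change (log2, cultured minus in vivo) of each of the 46 genes in young (orange) and old (brown) mice, with standard errors, in the same order of roles as the plot of values. Rrm2 stands highest at 5.71 and 5.32, and Orc1, Pcna, Pola2, Slbp and Gins3 lie near 0.

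The choice of probe set bears on how unequal the members look. Of the 46 members 27 have several probe sets, with 82 probe sets over all members. Of the 36 not used above, 29 changed in the same direction as the one used and 7 did not. Among the 36, 9 lay in the control range in all 4 groups. Of the 7, those of Cdt1, Chaf1b, Mcm5, Orc1 and Pola2 are among these 9, and that of Mcm5 had a rounded change of 0. Mcm7 and Mcm2 stood far apart on the probe sets used, with changes of 0.60 and 4.31, but their second probe sets changed by 1.71 and 2.00. Uhrf1 changed by 1.96 on one probe set and 3.84 on the other, both above the control range in vivo. Cdc7 changed by 1.61 and 0.15. Of the Tyms probe sets, the one used changed by 1.84 and another, near the control range, by -0.33. In Slbp, a second probe set well above the control range fell from group means of 7.89 and 8.13 in vivo to 6.35 and 6.10 in culture, a difference of -1.79, while the one used differed by 0.25. A second Orc1 probe set, in the control range, differed by 0.60. Which probe sets match which transcripts was not examined.

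**Figure D3:**
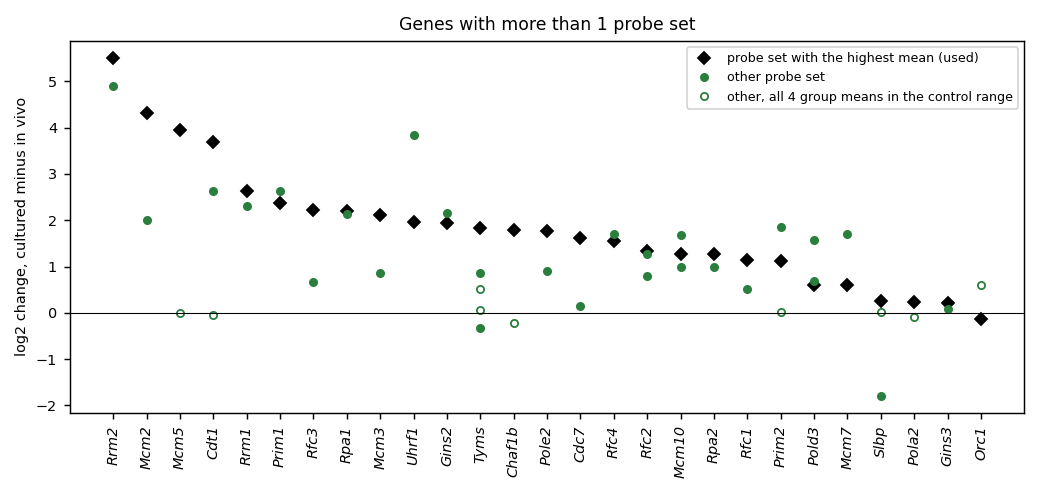
Culture change (log2, cultured minus in vivo) of every probe set of the 27 genes with more than 1, with the one used as a diamond, others as filled circles and those in the control range in all 4 groups as open circles. The second Slbp probe set lies at -1.79, and the second Uhrf1 probe set at 3.84 lies above the one used.

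Cultured arrays differed from each other in these genes more than in most. The median residual SD of the members was 0.233 in culture and 0.229 in vivo, whereas that of all tested genes was 0.129 in culture and 0.185 in vivo. In culture 42 of the 46 members had an SD above the median of all tested genes. The members went up and down together from array to array. Their median deviation from each gene's mean over the 8 cultured arrays was 0.14, 0.20, -0.18 and -0.08 on young cultured arrays 1 to 4. It was 0.24, 0.14, -0.32 and -0.15 on old cultured arrays 1 to 4. Old cultured array 3 was the lowest of the 8 for 37 of the 46 members and for 12.1% of all tested genes. Old cultured array 1 was the highest for 25 members and for 16.1% of tested genes. The 23 measured mitosis genes did not follow the same order, with median deviations of 0.00, 0.01, 0.05 and 0.09 on the young cultured arrays and 0.03, -0.03, -0.12 and -0.03 on the old ones. The median deviation of all tested genes lay between -0.01 and 0.01 on each cultured array. High and low arrays occurred in both ages, with arrays 1 and 2 above 0 and arrays 3 and 4 below 0 in each. In the order of deposit, cultured arrays 1 and 2 of both ages came before cultured arrays 3 and 4. The spread between cultured arrays enters the error of the comparison of ages in culture, and no label names a batch that could be fitted. Whether the difference goes with mouse, collection day or time in culture was not tested.

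**Figure D4:**
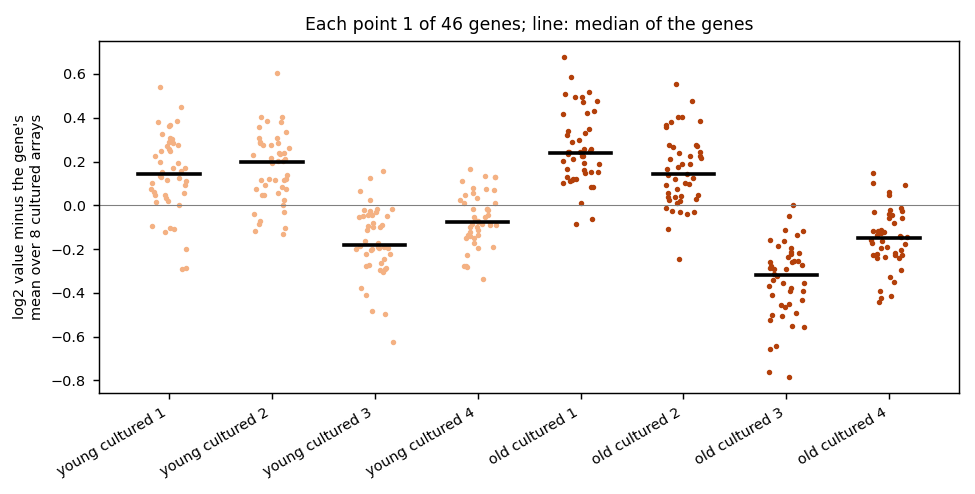
Deviation of each of the 46 genes (points) from its own mean over the 8 cultured arrays (log2), by array, with the median of the genes as a line. The medians run from -0.32 on old cultured array 3 to 0.24 on old cultured array 1, and young and old arrays overlap.

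Between ages no member passed the test. In vivo 0 of the 46 members passed the test in either direction (limma on the 8 in vivo arrays), where 0.911% of tested genes were higher and 0.439% lower in old mice. At an unadjusted p under 0.05 there were 8 members, beside 2217 of all 14819 tested genes. The median difference of the members, old minus young, was 0.11 against 0.02 over all tested genes, and 31 of the 46 were above 0, as were 53.0% of all tested genes. That median was 0.04 with the arrays scaled to an equal 75th percentile, 0.07 after cyclic loess and 0.08 without young in vivo array 3. The 95% interval stayed within 2-fold for 45 of the 46 members, with Dnmt1 (0.14 to 1.10) as the exception.

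The 4 members with the lowest p in vivo were all higher in the mean of the old mice. Mcm3 read 5.94, 5.86, 5.85 and 6.05 on the young in vivo arrays and 6.51, 6.27, 6.15 and 6.64 on the old ones. These groups did not overlap, and the difference was 0.47 ± 0.12 with adjusted p = 0.0964 in limma and an exact two-sided permutation p of 0.0286, the smallest that 4 against 4 arrays can give. All 4 old arrays lay above all 4 young arrays in 5.80% of tested genes, and in no other member. A second Mcm3 probe set had means of 4.90 in young and 4.82 in old mice. Dnmt1 read 5.92, 5.65, 5.61 and 6.59 on the young in vivo arrays and 6.18, 6.62, 6.57 and 6.88 on the old ones. Dnmt1 differed by 0.62 ± 0.22 (adjusted p = 0.201 in limma, exact permutation p = 0.0857), and young in vivo array 4 lay among the old values. Mcm5 read 5.16, 5.48, 5.29 and 6.06 on the young in vivo arrays and 5.84, 5.96, 5.96 and 6.27 on the old ones. The Mcm5 difference was 0.51 ± 0.19 (adjusted p = 0.214 in limma, exact permutation p = 0.114), again with overlap through young array 4. Gins4 read 7.51, 7.24, 6.65 and 7.08 on the young in vivo arrays and 7.60, 7.55, 7.46 and 7.59 on the old ones. Gins4 differed by 0.43 ± 0.16 (adjusted p = 0.230 in limma), and the exact permutation p was 0.0571. In the opposite direction, Ccne2 had all 4 old values (3.13, 3.12, 3.14 and 2.98) below all 4 young ones, as 2.73% of tested genes had, but within the control range.

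In culture 0 of the 46 members passed the test between ages (limma on the 8 cultured arrays), and 0% of tested genes passed it in either direction. At an unadjusted p under 0.05 there were 0 members, and 533 of all tested genes. Below 0 were 29 of the 46 members and above 0 were 17, and 50.9% of all tested genes were above 0. The median difference of the members was -0.04, and it moved between -0.12 (without old cultured array 1) and 0.06 (without old cultured array 3). In no member did all old cultured values lie above or below all young ones, which held for 1.19% and 0.864% of tested genes. Every member's 95% interval stayed within 2-fold, with bounds between -0.83 and 0.77. Rfc2, Pold3, Cdt1 and Cdc6 had the lowest p, each with adjusted p = 0.997 in limma. Rfc2 read 8.89, 9.05, 9.04 and 9.16 on the young cultured arrays and 9.24, 9.11, 9.04 and 9.18 on the old ones. Cdt1 read 9.34, 9.30, 9.02 and 8.98 on the young cultured arrays and 9.18, 9.19, 8.70 and 8.84 on the old ones. Both genes overlapped between ages, with differences of 0.11 ± 0.08 and -0.18 ± 0.13. Pold3 read 6.27, 6.47, 6.68 and 6.47 on the young cultured arrays and 6.64, 6.94, 6.37 and 6.62 on the old ones. Cdc6 read 6.98, 7.01, 6.70 and 6.59 on the young cultured arrays and 6.90, 6.77, 6.42 and 6.49 on the old ones. These overlapped as well, with differences of 0.17 ± 0.13 and -0.17 ± 0.13.

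**Figure D5:**
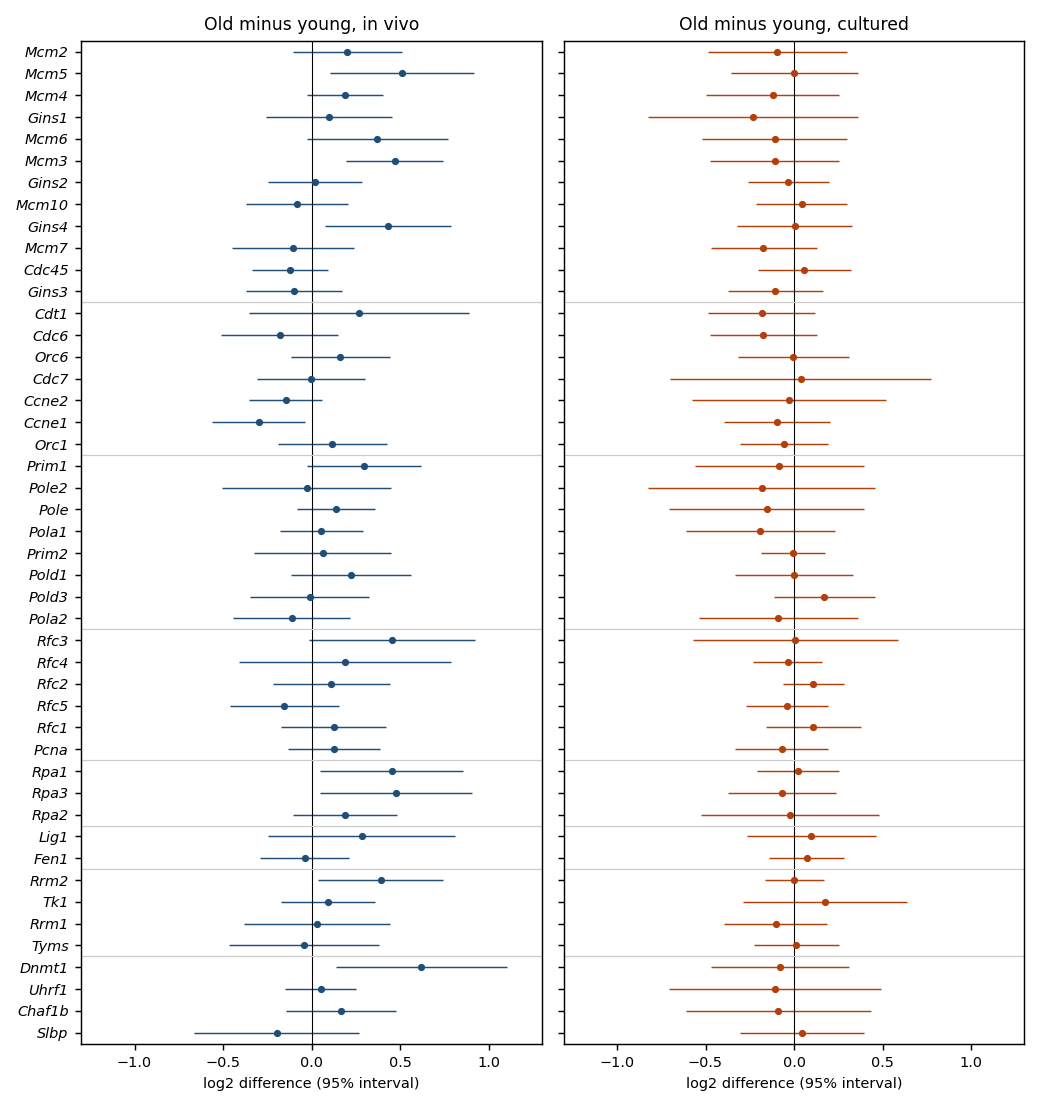
Age difference (log2, old minus young) of each of the 46 genes with its 95% interval, in vivo on the left and in culture on the right, in the order of roles of the plot of values. In vivo 31 differences lie above 0 and in culture 29 lie below 0, and 0 genes passed the test on either side.

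The interaction, the age difference in culture minus that in vivo, asks whether culture changes the genes differently in old and young cells. No member passed the test (0 of 46, limma on 16 arrays), where 0.196% of tested genes were above and 0.391% below. At an unadjusted p under 0.05 there were 3 members, beside 1823 of all tested genes. Below 0 were 33 of the 46 members and above 0 were 13, and 47.1% of all tested genes were above 0. The median of the members was -0.17, against -0.02 over all tested genes. It was -0.09 with 75th percentile scaling, -0.11 after cyclic loess, -0.26 without old cultured array 1 and -0.05 without old cultured array 3. Mcm3 had -0.58 ± 0.21 (adjusted p = 0.246 in limma), Dnmt1 -0.70 ± 0.30 (0.344), Rpa3 -0.55 ± 0.25 (0.399) and Rrm2 -0.39 ± 0.18 (0.410). Rpa3 read 4.96, 4.64, 4.43 and 4.59 on the young in vivo arrays, 4.97, 4.64, 5.35 and 5.56 on the old in vivo arrays, 6.52, 6.51, 6.44 and 6.52 on the young cultured arrays and 6.69, 6.63, 6.01 and 6.38 on the old cultured arrays. Rpa3 overlapped between ages both in vivo and in culture. The 95% interval reached beyond 2-fold for 8 of the 46 members, so the arrays limit this comparison most. The in vivo and interaction comparisons share the in vivo arrays and are not independent.

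Genes around the members moved with them in culture. Of 42 other replication genes, listed for the same roles, 34 were tested and 28 of them were higher, 1 lower and 5 not called, with a median of 0.84. Pclaf, which binds PCNA, changed by 4.81 ± 0.11, Wdhd1 by 3.35 ± 0.14, the licensing inhibitor Gmnn by 2.99 ± 0.17 and Atad5, which unloads PCNA, by 2.97 ± 0.14. Gmnn and Atad5 lay in the control range in vivo in both ages and Pclaf in young mice. Timeless, of the fork protection complex, fell by 0.62. Of 31 other nucleotide supply genes 28 were tested, with 22 higher, 1 lower and a median of 1.13. The purine synthesis genes Pfas, Ppat and Adss rose by 3.05 ± 0.11, 2.58 ± 0.13 and 2.31 ± 0.11 and the CTP synthase Ctps by 2.73 ± 0.11, with Pfas in the control range in vivo. Tk2, the mitochondrial thymidine kinase, fell by 0.28 within the control range.

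Of 27 genes of E2F, retinoblastoma and G1 control, 18 were higher and 5 lower, with a median of 0.94. E2f7, Cdk6, Tfdp1 and E2f6 rose by 2.50 ± 0.16, 2.30 ± 0.16, 2.15 ± 0.15 and 2.06 ± 0.14. Of the other E2F genes, E2f3, E2f8 and E2f5 rose by 1.73 ± 0.07, 1.02 ± 0.08 and 0.50 ± 0.08. E2f2 was lower (-0.345 ± 0.083), and E2f1 and E2f4 did not pass the test (0.05 ± 0.06 and 0.03 ± 0.10). The CDK inhibitors split. Cdkn1c fell by 3.01, Cdkn1b by 0.61 and Cdkn1a by 0.49, whereas Cdkn2b rose by 2.05 ± 0.13 and Cdkn2a by 0.96 ± 0.14, and Cdkn2c and Cdkn2d did not pass the test (-0.06 ± 0.10 and 0.09 ± 0.11). The retinoblastoma family split as well, with Rbl2 at -1.25 ± 0.09, Rbl1 at 1.52 ± 0.12 and Rb1 at 0.24 ± 0.07. These families were given in full after their values were seen. E2f5, E2f7, Rbl1 and Cdkn2a lay in the control range in vivo, and Cdkn2b and Rb1 in young mice. Mitosis genes were higher in 23 of 23 cases, with a median of 3.17. Between ages none of the replication, nucleotide or mitosis genes outside the members passed the test in either state, and 2 of the 27 control genes were higher in old mice in vivo. These were the inhibitor Cdkn2b (0.58 ± 0.12, adjusted p = 0.0489 in limma) and Rbl2 (0.65 ± 0.13, adjusted p = 0.0406).

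Cell type markers and RNA measures also differed between the groups. The summed level of 10 fibroblast markers was 14.86 to 15.04 (log2 of the sum) in vivo and 13.75 to 13.94 in culture, and 9 of the 10 were lower in culture. All but Pdgfra, whose cultured means were 4.63 and 4.75, stayed above the control range in every group. The sum of 10 macrophage markers, 4 of them in the control range throughout, went from 8.97 to 9.71 in vivo to 8.03 to 8.31 in culture. The sum of 6 muscle markers went the other way, from 7.13 to 7.42 in vivo to 8.80 to 10.16 in culture. There Acta1, the skeletal muscle actin, rose by 5.01 ± 0.16, while 3 of the other tested muscle markers fell. The actin 3′ minus 5′ value was -0.41 ± 0.07 and -0.46 ± 0.11 (SD, n = 4) in young and old in vivo samples and 0.07 ± 0.04 and 0.10 ± 0.07 in the cultured ones. That of Gapdh had means of -0.15 to -0.08 in all 4 groups. In vivo, sums in old mice reached above the young range for 9 keratinocyte markers (8.68 to 10.44 against 8.54 to 8.92), 8 endothelial markers (8.27 to 9.34 against 8.00 to 8.43) and 4 pericyte markers (8.15 to 8.94 against 7.63 to 8.07). In the control range throughout were 4 of the keratinocyte, 6 of the endothelial and 0 of the pericyte markers. The pericyte sum follows Kcnj8 (means of 7.17 in young and 8.23 in old mice), as its other markers had in vivo means of 4.56 to 4.92. Of those, Rgs5 and Notch3 were lower and Mcam higher in the mean of the old mice. The brightest endothelial markers were Kdr (6.57 and 7.34) and Tek (6.31 and 6.98), and the others differed by -0.12 to 0.07. Of the 8 tested macrophage markers 1 passed the test between ages in vivo, Csf1r, which was lower in old mice (-1.08 ± 0.15, adjusted p = 0.00995 in limma). So did 1 of the 10 fibroblast markers, Col1a2, lower in old mice (-0.635 ± 0.133, adjusted p = 0.0493 in limma). Of the 4 pericyte markers 1 passed, Kcnj8, higher in old mice (1.06 ± 0.22, adjusted p = 0.0494 in limma). Of the keratinocyte and endothelial markers 0 passed. The part of these differences in the culture and age results was not tested.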

How the data were processed

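The deposited table holds log2 values (base taken from their range) of 45141 probe sets on 16 arrays, and the submitters' processing notes name RMA and affy, with no version. RMA subtracts background and equalises the arrays, which narrows differences of dim genes and makes each change relative to the rest of the array. Of the probe sets, 28898 had 1 gene symbol, 551 several and 15692 were not listed. Each gene took its probe set with the highest mean, and a gene was tested if at least 4 arrays lay above 3.87, the 25th percentile of all values. All 46 members passed. Ccne2 and Fen1 did so only through cultured arrays, as their highest in vivo values were 3.34 and 3.73.

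Group means were fitted with limma 3.58.1 in R 4.3.3. Culture and the interaction were fitted on all 16 arrays, with 1 estimate of the spread shared by both conditions. Age was fitted on the 8 arrays of one condition, because the spread over all tested genes differed between conditions. The median residual SD was 0.185 in vivo and 0.129 in culture over all tested genes, and 0.229 and 0.233 in the members. P-values were adjusted over 14819 genes (Benjamini-Hochberg, threshold 0.05). The fit was tested on simulated data. There, an added log2 change of 0.5 was recovered in 38% of genes for age in vivo, 72% for age in culture and 28% for the interaction. False calls made up 6.57% to 8.56% of the calls, above the threshold. The changed genes were drawn from all tested genes, and noise was independent between genes. The members had a larger spread than most genes in culture and moved together there. The recovered shares therefore do not give the share expected for the members. Array numbers limit the precision, and 4 against 4 arrays give an exact p no lower than 0.0286. The members, lists and comparisons were chosen with earlier results of these data known. Values on every array were given for the 8 members with the largest and the 6 with the smallest culture change and for the 4 with the lowest p in each age comparison where fewer than 4 passed. Other lists were named by up to 4 of the largest changes in each direction. Promoters were read from RefSeq (GRCm38.p6). Alternatives were other scalings, no filter, the mean over probe sets, array weights, other choices of arrays in the fit and leaving out each array. Per the design text, the samples of a group come from separate mice.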

Additional observations from a re-analysis of the deposited data

Results flagged for a closer look

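A single array stood apart from the other 3 of its group in 8 of 184 gene and group combinations (4.35%), where chance alone gives about 1 in 20. In vivo, these were Mcm4 on young array 4 (5.39), Orc6 and Rpa2 on young array 3 (5.66 and 6.34), and Ccne2 and Lig1 on old array 4 (2.98 and 7.52). In culture, they were Orc1 and Rpa3 on young array 3 (4.81 and 6.44) and Lig1 on young array 2 (9.33).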

How the results depend on the processing

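Under the 21 or 22 alternatives to each comparison, the members higher in culture numbered 41 to 43 averaged over ages, 38 to 42 in young and 40 to 42 in old mice, and 0 members passed in any age or interaction comparison. Members lower in culture numbered 1 in place of 0 under 75th percentile scaling, averaged and in each age (Orc1, -0.33, adjusted p = 0.00254 averaged), under cyclic loess, averaged (Pcna, -0.21, adjusted p = 0.0334), and with the mean over probe sets, averaged and in each age (Slbp, -0.51, adjusted p = 3.30e-04). Leaving out single arrays gave 0 to 1, averaged and in old mice. Pcna and Slbp thereby reversed, as did Orc1 with the mean over probe sets (0.23, adjusted p = 0.00904). The median in young mice moved to 1.51 under 75th percentile scaling and 1.49 with the mean over probe sets. Gins3 lost its call under 75th percentile scaling (0.01, adjusted p = 0.929), with the mean over probe sets (0.15, adjusted p = 0.0759) and with array weights (0.21, adjusted p = 0.0507). The causes were not tested, save that the mean over probe sets brings in the second Slbp and Orc1 probe sets.

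The median culture change of all tested genes was -0.11 as deposited, -0.31 under 75th percentile scaling and -0.05 under cyclic loess, and that of the members 1.60, 1.40 and 1.59. In the same order, higher calls were 43.7%, 32.5% and 46.5% of the culture calls, 67.5%, 43.9% and 51.1% of the age calls in vivo and 33.3%, 55.9% and 45.2% of the interaction calls. Fitting age in vivo on all 16 arrays called 900 genes and 0 members. No paired analysis was possible because no label ties a sample to its mouse. RMA compresses members in the control range, so their changes are limited by background.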
